A study of Rattus norvegicus with 352 samples.

Results

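The motile cilium genes described here are the genes of the deposited brain table whose symbol starts with Dnah, Dnai, Cfap, Rsph, Spag, Tekt or Drc followed by a number. These families name the dynein heavy and intermediate chains, the cilia and flagella associated proteins, the radial spoke heads, the sperm associated antigens, the tektins and the nexin-dynein regulatory complex. The rule took 96 of the 38354 genes by name alone, with no expression value. Of these, 78 had a mean level of at least 1 and were tested among 16683 such genes. A level is log2(CPM + 1), where CPM is a gene's count after its library was scaled to a total of 1000000. The other 18 had mean levels from 0.0 to 1.0. Dnah8 lay just under the minimum, and Spag17, at 1.03 ± 0.23 (SD over all libraries), just above it. Among the 18, the dynein chains Dnai2 (0.9 ± 0.23) and Dnah14 (0.85) and the radial spoke gene Rsph14 (0.6) were low but present, and 7 of the 18 were above 0 in every library. The lowest were Spag11a, Spag11bl1 and Spag11bl, defensin-like genes of the epididymis that share the name but no ciliary role, at mean levels of 0.0 to 0.08.

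PolyA RNA was sequenced from hemispheres of the whole brain of heterogeneous stock rats, an outbred laboratory population derived from inbred founder strains, which were naive and had no treatment. The labels give a single group and no age, sex or contrast, so the comparisons are relations between genes across animals. All labelled samples but 10, which are not analysed here, have a library in the table. A library is treated as a rat of its own, although no label states it, so a p-value speaks of the variation among libraries only. The estimated counts per library ranged from 5418230 to 42980793 (median 21881769). A hemisphere holds ependyma as 1 tissue among many. Fewer ciliated cells and less RNA per ciliated cell cannot be told apart in such samples.

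Motile cilia beat because dynein motors on the outer microtubule doublets of the axoneme slide against their neighbours, while radial spokes, the nexin-dynein regulatory complex and the central apparatus regulate the motors. In the brain they cover the ependymal cells that line the ventricles, where they move cerebrospinal fluid, and choroid plexus cells, which adjoin ependyma, also carry cilia. FOXJ1 is the transcription factor that switches on motile ciliogenesis, together with RFX factors, which bind the X-box motif.

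The promoters of the members are shown first, since X-box letters are the sequence feature best known for ciliary genes. RefSeq promoter windows on GRCr8, each of 300 bases from 250 before to 50 after an annotated start, were available for 79 of the 96 members. The following windows, all written 5′ to 3′ along the gene, belong to some of the members that the results turn on. Capitals mark GTTGCC, a short X-box motif, or its reverse complement GGCAAC, and in Spag6l also the longer motif given after the sequences. Every window printed holds the short motif, which only 27 of the 67 tested members with a window do. The windows of Cfap43, Dnah9 and Cfap251, on which results below also turn, hold neither X-box motif and are not printed. Cfap144 (chr10:44019232-44019531 on the minus strand) and Tekt1 (chr10:57479072-57479371 on the minus strand) encode proteins inside the doublet microtubules, and Cfap44 (chr11:69789856-69790155 on the minus strand) a protein that tethers an inner dynein arm. Drc1 (chr6:31779207-31779506 on the minus strand) and Spag8 (chr5:62699615-62699914 on the minus strand) followed another gene than those 3, and Spag6l (chr11:97677590-97677889 on the plus strand) belongs to the central apparatus. The annotated starts of Cfap44 and Drc1 lie inside the outermost coordinates of those genes.
Cfap144: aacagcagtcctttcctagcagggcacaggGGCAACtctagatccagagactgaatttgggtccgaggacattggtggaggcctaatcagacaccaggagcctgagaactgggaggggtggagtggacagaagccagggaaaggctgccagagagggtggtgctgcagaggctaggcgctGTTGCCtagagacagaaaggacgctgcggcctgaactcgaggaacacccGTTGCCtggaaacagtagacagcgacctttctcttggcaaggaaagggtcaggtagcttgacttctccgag
Tekt1: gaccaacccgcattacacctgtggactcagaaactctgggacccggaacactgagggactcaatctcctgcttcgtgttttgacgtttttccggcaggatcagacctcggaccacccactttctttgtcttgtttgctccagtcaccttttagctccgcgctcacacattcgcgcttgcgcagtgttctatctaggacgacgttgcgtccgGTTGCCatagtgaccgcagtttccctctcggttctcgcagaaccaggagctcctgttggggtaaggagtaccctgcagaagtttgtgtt
Cfap44: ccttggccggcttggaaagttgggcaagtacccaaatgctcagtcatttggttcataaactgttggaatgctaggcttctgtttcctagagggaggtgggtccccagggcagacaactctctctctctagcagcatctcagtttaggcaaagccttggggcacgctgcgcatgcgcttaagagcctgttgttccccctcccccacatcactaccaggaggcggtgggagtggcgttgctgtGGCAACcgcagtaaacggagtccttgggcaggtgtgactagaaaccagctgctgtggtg
Drc1: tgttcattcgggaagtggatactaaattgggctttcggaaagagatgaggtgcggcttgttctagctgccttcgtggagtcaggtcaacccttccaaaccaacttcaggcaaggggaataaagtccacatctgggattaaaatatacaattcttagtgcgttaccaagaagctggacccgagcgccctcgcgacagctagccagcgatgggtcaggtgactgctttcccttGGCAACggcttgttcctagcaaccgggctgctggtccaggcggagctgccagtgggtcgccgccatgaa
Spag8: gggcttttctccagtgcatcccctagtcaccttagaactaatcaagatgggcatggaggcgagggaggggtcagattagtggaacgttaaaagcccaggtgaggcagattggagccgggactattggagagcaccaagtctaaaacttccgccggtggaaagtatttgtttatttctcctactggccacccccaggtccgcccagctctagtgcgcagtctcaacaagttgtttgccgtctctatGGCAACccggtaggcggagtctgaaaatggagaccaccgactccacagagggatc
Spag6l: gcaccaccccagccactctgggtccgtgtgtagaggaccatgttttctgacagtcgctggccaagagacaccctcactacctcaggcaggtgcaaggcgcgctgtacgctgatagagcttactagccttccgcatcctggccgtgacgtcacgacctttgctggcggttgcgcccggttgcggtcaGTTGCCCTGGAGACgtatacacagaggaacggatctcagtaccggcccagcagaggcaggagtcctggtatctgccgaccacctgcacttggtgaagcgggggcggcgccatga

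GTTGCC, read on both strands, was present in 27 of the 67 tested members with a window (40.3%), against 1721 of 13541 tested genes with a window (12.7%). Of the 36 matches in members, 58.3% began within the last 100 bases before the start, against 34.1% of the 1890 matches in all tested genes. The longer X-box, in which GTNNCC and GGNAAC stand 2 bases apart, can overlap the short motif, as it does in Spag6l. It was present in 6 tested members (8.96%), namely Spag6l, Dnah2, Dnah12, Cfap298, Cfap20dc and Spag5, and in 1.39% of all tested genes. The forkhead core TGTTTAC was found in 2 tested members (2.99%) and in 2.44% of all tested genes. These letter matches are a description of the windows and not of binding.

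Before the relations were fitted, libraries were compared. The correlation of a library with the others had a median of 0.9912, and 3 libraries stood apart at 0.9824 to 0.9863. No named relation gained or lost its call without those 3. The first 6 characters of the library identifiers define 7 blocks of at least 8 libraries, and the labels do not say what a block is. Levels differed between blocks in 3 of 78 members by limma's F-test (adjusted p under 0.05), against 8.21% of all genes tested. They were Cfap20 (F = 4.01, adjusted p = 0.019), Cfap36 (F = 3.64, adjusted p = 0.0301) and Cfap210 (F = 3.62, adjusted p = 0.0306), while Cfap52 and Dnah5 came next at adjusted p = 0.0589 and 0.0697. The block means of Cfap20 ran only from 4.88 to 5.0. Counting error would by itself give between 1.36% and 63.2% of the variance of a tested member (median 33.5%), and over 50% in 11 of them. This share did not follow level alone, at 61.2% in Rsph6a (mean level 2.53) and 32.1% in Cfap144 (1.39). So r is bounded for members that are low or vary little. Some libraries were renamed by the submitters, per the labels, to correct a mismatch with genotypes.

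**Figure D1:**
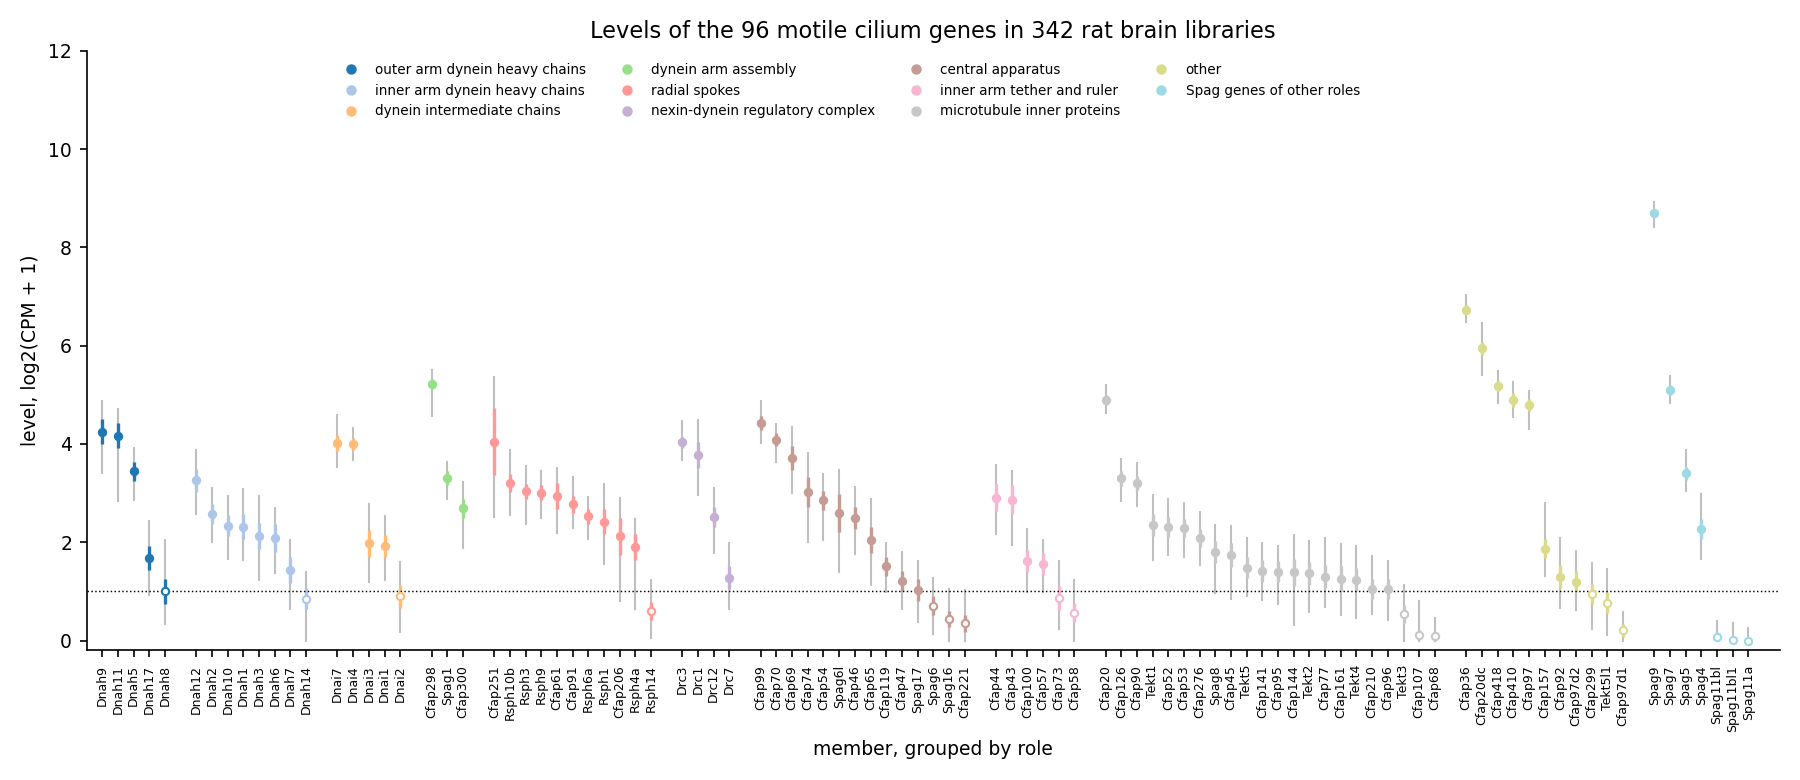
Level of each of the 96 members, grouped by role, as the mean over all libraries with its SD (coloured bar) and the lowest and highest library (grey line). Open circles are the 18 members under the minimum mean level of 1 (dotted line), and Cfap251 has the longest coloured bar.

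The label ependyma was checked against markers that are no members. Of 11 ependymal markers listed, 10 were in the table and 5 reached a mean level of 1. These were Foxj1 (3.81 ± 0.25, mean level ± SD over all libraries), Tmem212 (1.26 ± 0.27), Rarres2 (3.52 ± 0.17), Mlf1 (1.41 ± 0.26) and Vwa3a (4.19 ± 0.31). Mia, Cimap3, Fam216b, Stoml3 and Sntn were lower, at means of 0.06 to 0.66. Foxj1 correlated with Tmem212 (r = 0.48) and Mlf1 (r = 0.52), hardly with Rarres2 (r = 0.13), and inversely with Vwa3a (r = −0.43). Vwa3a instead followed Meg3, a long non-coding RNA kept in the nucleus (r = 0.87, rho = 0.86, and 0.82 to 0.92 within blocks). The marker score, which is the mean z value of the 5, therefore joins genes that do not move together, and relations to Foxj1 alone are given beside those to the score.

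With the marker score, 51 of 78 members rose and 2 fell (limma, adjusted p under 0.05), against 23.6% of all genes rising and 22.8% falling. The median Pearson r of the members was 0.22, and of all genes −0.0. An r of at least 0.4 was found in 20 members, against 0.965% of all genes. With Foxj1 alone, 39 members rose and 12 fell, against 28.2% and 37.8% of all genes. Foxj1 followed the choroid plexus marker score at r = 0.7, the astrocyte score at 0.45 and the meningeal score at 0.42, and with the ependyma score, which contains Foxj1, its r was 0.67. The part of those cell types in the relations to Foxj1 alone was not tested. The members' r with Foxj1 ran from −0.46 to 0.70 (median 0.12, all genes −0.03), and 19 reached 0.4, against 3.68% of all genes, while 2 were at −0.4 or less, against 7.63%. With the score without Vwa3a, an alternative added after seeing the data, 46 rose and 8 fell, against 29.5% and 35.7%. The name of a motile cilium gene thus did not fix how its level moved with Foxj1. The score, Foxj1 and Meg3 (below) made 3 relations for each of the 78 members, and adjusted p-values refer to all genes tested. Where a permutation p is 1e-05, it is the smallest that 100000 permutations can give.

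The inner arm dynein heavy chains, motors that shape the bend of the cilium, rose with the marker score in 7 of 7 tested members. Their r with it ran from 0.21 to 0.52 and with Foxj1 from 0.04 to 0.59. Dnah6 had levels from 1.38 to 2.7 (median 2.12) and rose by 0.17 ± 0.0124 (SE) per SD of Foxj1 (r = 0.59, rho = 0.59, permutation p = 1e-05; limma adjusted p = 6.32e-31). Its r within blocks lay between 0.41 and 0.72, and was 0.57 without the 2 libraries of most extreme Foxj1. Dnah7 (r = 0.55), Dnah1 (r = 0.52) and Dnah10 (r = 0.52) were next. Dnah2 (r = 0.04, adjusted p = 0.548) did not pass with Foxj1, although it passed with the marker score (r = 0.21). With the score without Vwa3a, r in this class ran from 0.05 for Dnah2 to 0.58 for Dnah7, and Dnah12 had 0.27.

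The outer arm heavy chains, the main source of beat frequency, did not share a pattern. Dnah5, whose loss causes primary ciliary dyskinesia, had levels from 2.85 to 3.92 (median 3.46) and rose with Foxj1 (r = 0.40, rho = 0.39, permutation p = 1e-05; limma adjusted p = 7.17e-14), with r from 0.16 to 0.74 within blocks. Dnah9, its usual partner in the distal axoneme, had levels from 3.4 to 4.88 (median 4.26) and fell with Foxj1 (r = −0.45, rho = −0.44, permutation p = 1e-05; limma adjusted p = 7.19e-18), with r from −0.77 to −0.1 within blocks. With the marker score it did not pass (r = −0.09, adjusted p = 0.143), and with the score without Vwa3a its r was −0.39. Libraries with high Foxj1 thus tended to have high Dnah5 and low Dnah9. Dnah11, the partner in the proximal axoneme, had levels from 2.83 to 4.72 (median 4.18), the lowest in a library that stands apart, and barely moved with Foxj1 (r = 0.12, adjusted p = 0.0435). Dnah17, known from sperm, gave r = −0.11 and did not pass.

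The intermediate chains split in the same way. Dnai3, an inner arm component, had levels from 1.2 to 2.78 (median 1.99) and rose with Foxj1 (r = 0.58, rho = 0.62, permutation p = 1e-05; limma adjusted p = 2.82e-30), with r from 0.11 to 0.76 within blocks. Dnai1, the outer arm chain, rose with Foxj1 (r = 0.32) and with the marker score (r = 0.37). Dnai7 had levels from 3.54 to 4.58 (median 4.02) and fell with Foxj1 (r = −0.34, adjusted p = 5.26e-10) but did not pass with the score (r = −0.1, adjusted p = 0.0971). Its r with the score without Vwa3a was −0.32. Dnai4 rose with the marker score (r = 0.21) and did not pass with Foxj1 (r = 0.08). The 3 assembly members, which help fold and load dynein arms, rose with the marker score, Cfap300 most (r = 0.39), with Spag1 and Cfap298 at 0.18. Of these, Cfap300 passed with Foxj1.

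Among the radial spoke members, 7 of 10 tested rose with the marker score and none fell. Rsph4a, a spoke head protein and a primary ciliary dyskinesia gene, had levels from 0.65 to 2.47 (median 1.92) and rose by 0.16 ± 0.0113 per SD of Foxj1 (r = 0.62, rho = 0.64, permutation p = 1e-05; limma adjusted p = 4.58e-35). Its r was 0.35 to 0.73 within blocks and 0.64 without the 3 libraries that stand apart. Rsph1, also of the spoke head, gave r = 0.42. Rsph3, a spoke stalk protein, fell with Foxj1 (r = −0.2). Cfap251, of the spoke base, followed neither Foxj1 (r = 0.05, adjusted p = 0.459) nor the marker score (r = −0.02, adjusted p = 0.743).

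The tether and ruler members held the closest relations. Cfap43 and Cfap44 form the tether of the inner arm motor f, and both are male infertility genes. Cfap43 had levels from 1.94 to 3.45 (median 2.88) and rose by 0.20 ± 0.0111 per SD of Foxj1 (r = 0.70, rho = 0.72, permutation p = 1e-05; limma adjusted p = 4.45e-48). Cfap44 had levels from 2.17 to 3.57 (median 2.9) and rose by 0.18 ± 0.0115 (r = 0.64, rho = 0.67, permutation p = 1e-05; limma adjusted p = 1.89e-38). The r of Cfap43 lay between 0.58 and 0.75 within blocks, and that of Cfap44 between 0.44 and 0.78. The partners correlated with each other at r = 0.74 (rho = 0.76, permutation p = 1e-05). Cfap57 and Cfap100, the other tested members of the class, gave r = 0.35 and 0.06 with Foxj1.

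The microtubule inner proteins, which stiffen the doublets from within, were mixed. Of 19 tested, 11 rose with the marker score and none fell. Cfap144 (r = 0.57), Cfap161 (r = 0.50) and the tektin Tekt1 (r = 0.48) led. Cfap144 had levels from 0.31 to 2.15 (median 1.39), and its r with Foxj1 of 0.57 lay between 0.01 and 0.64 within blocks. Tekt1 had levels from 1.64 to 2.96 (median 2.34), with r = 0.56 and 0.49 to 0.68 within blocks. Libraries with high Foxj1 thus tended to be high in both, in the case of Cfap144 hardly so in 1 block. Cfap126, known as Flattop, rose with Foxj1 (r = 0.49). Cfap52 gave r = 0.44 with the marker score. Cfap20 is a conserved protein of basal bodies and axonemes. Its r was 0.03 with the marker score and −0.15 with Foxj1, and it fell with the latter (adjusted p = 0.00822).

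In the nexin-dynein regulatory complex, Drc12 and Drc7 rose with the marker score (r = 0.55 and 0.52) and with Foxj1 (r = 0.43 and 0.51). Drc7 had levels from 0.64 to 1.98 (median 1.29). Drc1, the scaffold of the same complex, had levels from 2.97 to 4.48 (median 3.79) and fell with Foxj1 (r = −0.39, adjusted p = 2.1e-13). Drc3 also fell with Foxj1 (r = −0.28, adjusted p = 3.69e-07). Neither passed with the marker score, where Drc1 had r = −0.02 (adjusted p = 0.837) and Drc3 r = −0.05 (adjusted p = 0.414). In the central apparatus, Cfap46 and Cfap65 rose with the marker score (r = 0.51 and 0.39) and with Foxj1 (r = 0.45 and 0.24), while Cfap74 had levels from 2.01 to 3.81 (median 3.02) and fell with both the score (r = −0.13, adjusted p = 0.0413) and Foxj1 (r = −0.46, adjusted p = 2.53e-18). Cfap69, known from olfactory cilia and sperm, fell with Foxj1 (r = −0.36, adjusted p = 5.78e-11) and did not pass with the score (r = −0.08, adjusted p = 0.225). Members of 1 structure thus differed in direction with Foxj1, and apart from Cfap74 not with the marker score that holds Vwa3a. With the score without Vwa3a, which still holds Foxj1, their r differed in sign. It was −0.3 for Drc1, −0.26 for Drc3, −0.24 for Cfap69 and −0.39 for Cfap74. For Drc12 it was 0.53, for Drc7 0.56, for Cfap46 0.47 and for Cfap65 0.25. In 2 of the fits with other predictors given below, Foxj1 beside Meg3 and the ependyma score beside other cell types, no member fell. The latter count was 1 with median ratio scaling or without Vwa3a. With Foxj1 beside Slc6a4, also given below, 5 members fell, Cfap69 and Cfap74 among them, against 17% of all genes.

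Some Spag and Cfap members have no axonemal role or none that is settled. Spag9, a scaffold of JNK signalling and motor transport, had levels from 8.41 to 8.93 (median 8.7) and an r of −0.13 with the marker score (adjusted p = 0.0367). The falls of Cfap74 and Spag9 with the score rest on the processing, since with no level minimum their adjusted p was 0.0624 and 0.0552 by limma, and with the first principal component as a covariate Cfap74 rose (adjusted p = 0.00111). Spag5, a mitotic spindle protein, gave r = 0.02, and Spag7 0.18. The broadly named Cfap36 (r = 0.20) and Cfap20dc (r = 0.19) passed with the score but not with Foxj1.

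**Figure D2:**
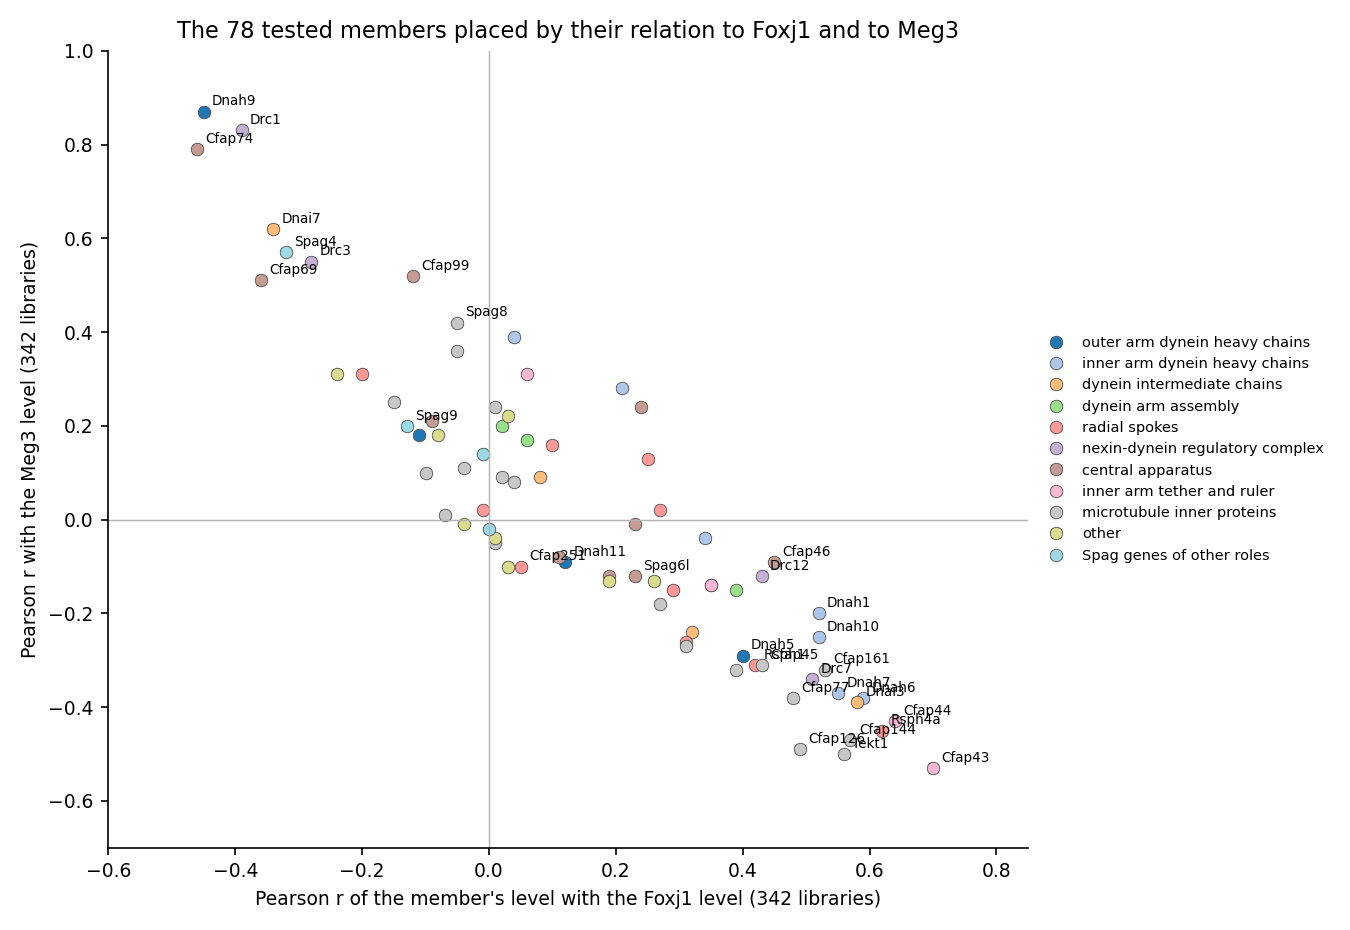
Each point is 1 of the 78 tested members, coloured by role and placed by the Pearson r of its level with Foxj1 (horizontal) and with Meg3 (vertical) over all libraries. Cfap43 lies at 0.70 and −0.53, and Dnah9 at −0.45 and 0.87, and Foxj1 and Meg3 themselves correlated at −0.57.

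Each of the 12 members that fell with Foxj1 rose with Meg3, a predictor chosen after the values were seen, at r from 0.2 (Spag9) to 0.87 (Dnah9). How many of all genes that fell with Foxj1 also rose with Meg3 is not given here, so this overlap is not shown to be particular to the members. Meg3 had levels from 7.47 to 9.79 (median 8.72) and correlated inversely with Foxj1 (r = −0.57, rho = −0.55, permutation p = 1e-05, and −0.81 to −0.19 within blocks). Its r was below 0 with the scores of all 9 cell types fitted further on, at −0.64 with astrocyte, −0.6 with meningeal, −0.56 with choroid plexus, −0.51 with oligodendrocyte and −0.4 with neuron. It was 0.96 with Miat, another nuclear non-coding RNA. What these cell types and nuclear RNA contribute to the relations to Meg3 was not tested. Dnah9 rose by 0.21 ± 0.0066 per SD of Meg3 (r = 0.87, rho = 0.86, permutation p = 1e-05; limma adjusted p = 4.12e-105). Its r was 0.85 to 0.9 within blocks and 0.86 without the 2 libraries of most extreme Meg3. Drc1 (r = 0.83), Cfap74 (r = 0.79), Dnai7 (r = 0.62), Spag4 (r = 0.57), Drc3 (r = 0.55), Cfap99 (r = 0.52), Cfap69 (r = 0.51) and Spag8 (r = 0.42) were the other members at 0.4 or more. These 9 of 78 members are to be read against 18.8% of all genes at 0.4 or more. At −0.4 or less were 6 members, against 6.25% of all genes, among them Cfap43 (r = −0.53), Tekt1 (r = −0.5) and Cfap126 (r = −0.49). In all, 28 members rose and 31 fell with Meg3, against 43% and 30.1% of all genes. This split moved with the scaling, to 19 rising and 40 falling with TMM and 21 and 40 with median ratio scaling. The shares of all genes under those scalings are not given here, so whether the shift is particular to the members was not tested.

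The largest r between tested members was 0.76, for Dnah9 with Drc1 and with Cfap74. These 3 were also the members of largest r with Meg3, and genes that share such a relation must correlate with each other. Over the 3003 pairs of tested members, the median r was 0.08 and the range −0.39 to 0.76. An r of at least 0.4 held for 6.13% of these pairs and for 2.36% of pairs of all tested genes. GTTGCC was present in 4 of the 9 members that followed Meg3 at 0.4 or more, in 7 of the 17 that followed Foxj1 at 0.4 or more and have a window, and in 16 of the 41 others. The longer X-box was present in 0 of those 9, in 0 of those 17 and in 6 of the 41 others. The windows of Cfap144 and Drc1 printed above are examples from either side.

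**Figure D3:**
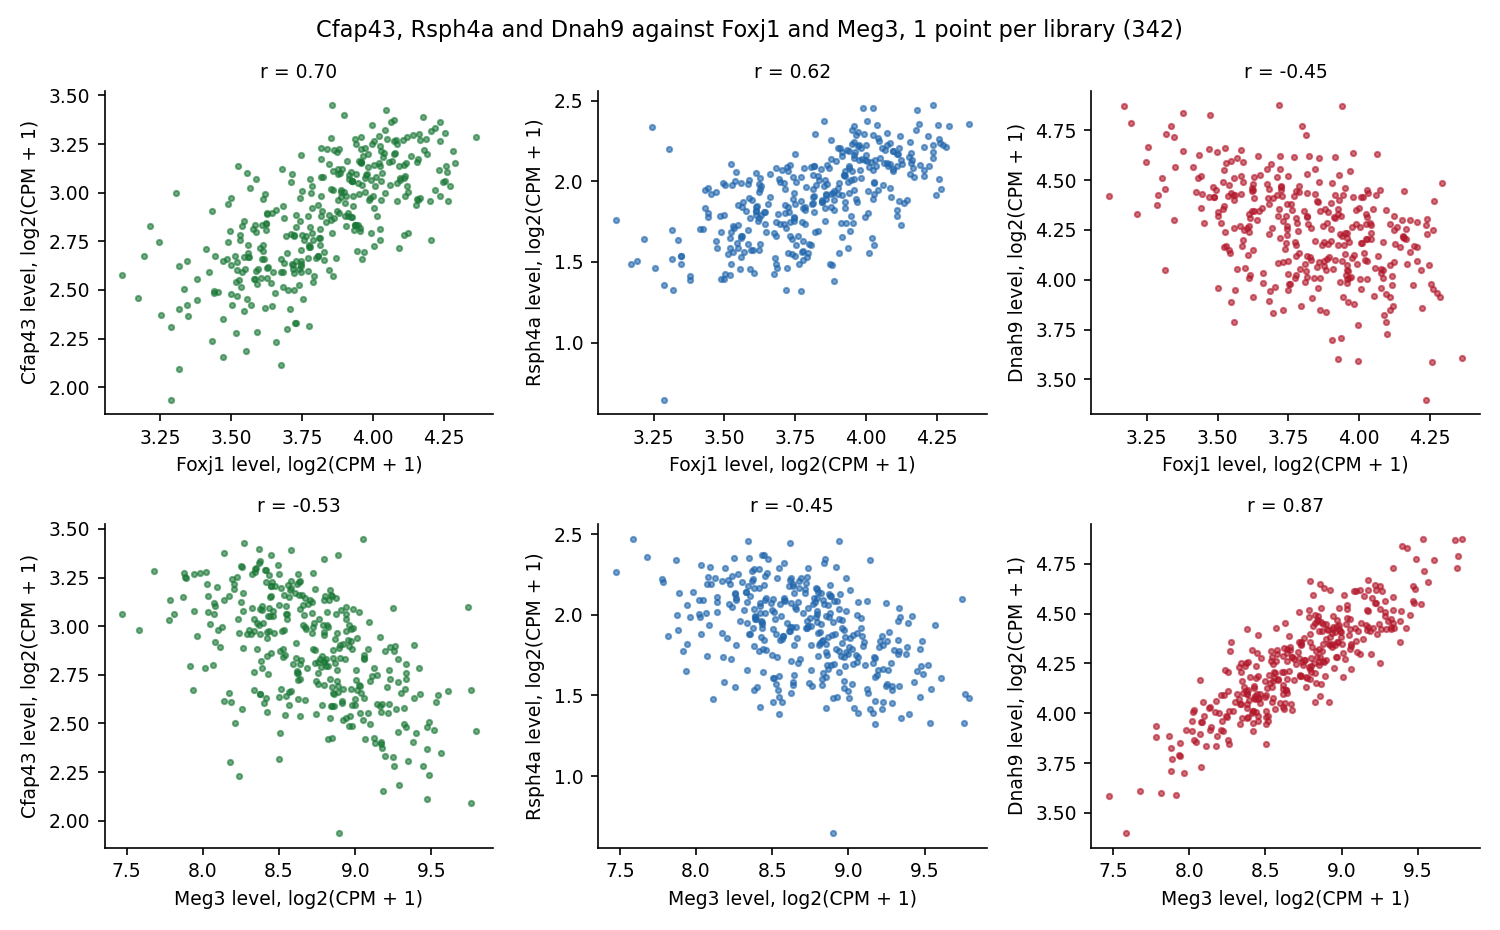
Levels of Cfap43, Rsph4a and Dnah9 (columns) against Foxj1 (upper row) and Meg3 (lower row), 1 point per library on the log2(CPM + 1) scale. The point clouds of Cfap43 and Rsph4a rise with Foxj1 and fall with Meg3, and that of Dnah9 does the reverse, with r = 0.87 against Meg3.

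When Foxj1 and Meg3 were fitted together, 50 of 78 members rose with Foxj1 and 0 fell (limma, adjusted p under 0.05), against 15.9% and 12.1% of all genes. At an unadjusted p under 0.05 there were 51 and 0. The same fit gave 37 members rising and 8 falling with Meg3, against 39% and 23.4%. Dnah9 had a slope of 0.01 ± 0.00799 on Foxj1 (adjusted p = 0.194) and 0.22 ± 0.00799 on Meg3. Drc1 rose slightly with Foxj1 (0.03 ± 0.00975, adjusted p = 0.0129) and strongly with Meg3 (0.24 ± 0.00975). Cfap43 kept 0.17 ± 0.0131 on Foxj1 (adjusted p = 3.82e-27) and fell with Meg3 (−0.06 ± 0.0131). The 12 members that fell with Foxj1 alone no longer did so at a given Meg3. Over all genes, the share that fell with Foxj1 was 37.8% alone and 12.1% beside Meg3.

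The genes most like Cfap43 included a pair from serotonin neurons. By the rule of largest r over all libraries, its 3 nearest genes were Slc6a4, the serotonin transporter, Tph2, the serotonin-synthesising enzyme of raphe neurons, and Ak7, an axonemal adenylate kinase (r = 0.75). Slc6a4 had levels from 0.0 to 3.4 (median 2.25) and Tph2 from 0.45 to 4.12 (median 2.92), which is a wide range for both. Cfap43 correlated with Slc6a4 at r = 0.76 (rho = 0.78, permutation p = 1e-05, and 0.68 to 0.94 within blocks). This pair was picked for its size, so its permutation p is a description only. Slc6a4 or Tph2 was among the 3 nearest genes of 12 of the 78 members, and Cfap43 was among those of 17. The shares of all tested genes for these counts are not given here, so the counts are a description only. Foxj1 itself correlated with Slc6a4 at r = 0.73 (rho = 0.75, permutation p = 1e-05, and 0.53 to 0.8 within blocks).

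A fit of Foxj1 with Slc6a4, added after these values were seen, left 24 members rising and 5 falling with Foxj1, against 13.3% and 17% of all genes. In that fit 33 members rose and 10 fell with Slc6a4, against 16.8% and 26.1%. Cfap43 had slopes of 0.09 ± 0.0141 on Foxj1 (adjusted p = 4.8e-07) and 0.16 ± 0.0141 on Slc6a4 (adjusted p = 4.8e-22). Slc6a4 was taken as the gene of largest r with Cfap43. Its larger slope for Cfap43 follows from that choice and is a description only. Cfap44 had 0.06 ± 0.0146 and 0.16 ± 0.0146, and Rsph4a 0.09 ± 0.0158 and 0.1 ± 0.0158. The count of members rising with Foxj1 was therefore 39 alone, 50 beside Meg3 and 24 beside Slc6a4. Slc6a4 and Tph2 mark raphe neurons of the brain stem, and the part of dissection in these relations was not tested.

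Marker scores of other cell types were then fitted beside the ependymal one, 9 scores in 1 model. On the ependyma term 56 of 78 members rose and 0 fell (limma, adjusted p under 0.05), against 21.4% and 9.84% of all genes, and 61 and 0 passed at an unadjusted p under 0.05. On the choroid plexus term 27 rose and 6 fell, against 9.82% and 16.8%. Rsph4a had the largest choroid slope (0.13 ± 0.0144, adjusted p = 6.46e-15) beside 0.07 ± 0.0126 on ependyma, and Cfap44 had 0.12 ± 0.0137 beside 0.08 ± 0.0121. Cfap43 had 0.10 ± 0.0137 on choroid and 0.11 ± 0.0121 on ependyma. Drc7 passed on ependyma (0.09 ± 0.0133) and not on choroid plexus (adjusted p = 0.0667). The 6 members that fell with the choroid term were Cfap74, Dnah9, Drc1, Spag4, Dnai7 and Drc3, all of which had risen with Meg3. Meg3 itself had an r of −0.56 with the choroid plexus score, and how often both held over all genes is not given here.

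Single members followed scores of other cells. Dnah11 rose by 0.14 ± 0.0137 per SD of the cerebellar granule score (adjusted p = 5.26e-20) and did not pass on ependyma. Gabra6, a marker of that score, was at 1.03 in its lowest library against a median of 7.31, and the slope without that library is not given here. Cfap20dc rose by 0.08 ± 0.00607 per SD of the oligodendrocyte score (adjusted p = 1.19e-28), and its 3 nearest genes included Pllp (r = 0.66) and Opalin (r = 0.64), which are genes of myelin. Cfap36 rose by 0.05 ± 0.00468 with the neuron score (adjusted p = 1.16e-21). Dnah5 rose by 0.07 ± 0.012 with the astrocyte score (adjusted p = 9.65e-07), beside 0.03 ± 0.0106 on ependyma. On the astrocyte term 12 members rose and 15 fell, against 11.3% and 26.7% of all genes. On the oligodendrocyte term 9 rose and 22 fell, against 16.1% and 29.8%. On the neuron term 6 rose and 18 fell, against 19.7% and 27.2%. On the cerebellar granule term 5 rose and 13 fell, against 12.6% and 10.2%. Terms of vessels, coverings and immune cells held few members. The endothelial term had 0 rising and 1 falling, against 6.73% and 4.07%, and by unadjusted p from limma 2 and 6. The meningeal term had 0 in both directions, against 2.74% and 1.2%, and 3 each by unadjusted p from limma. The microglial term had 1 each, against 2.22% and 1.53%.

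**Figure D4:**
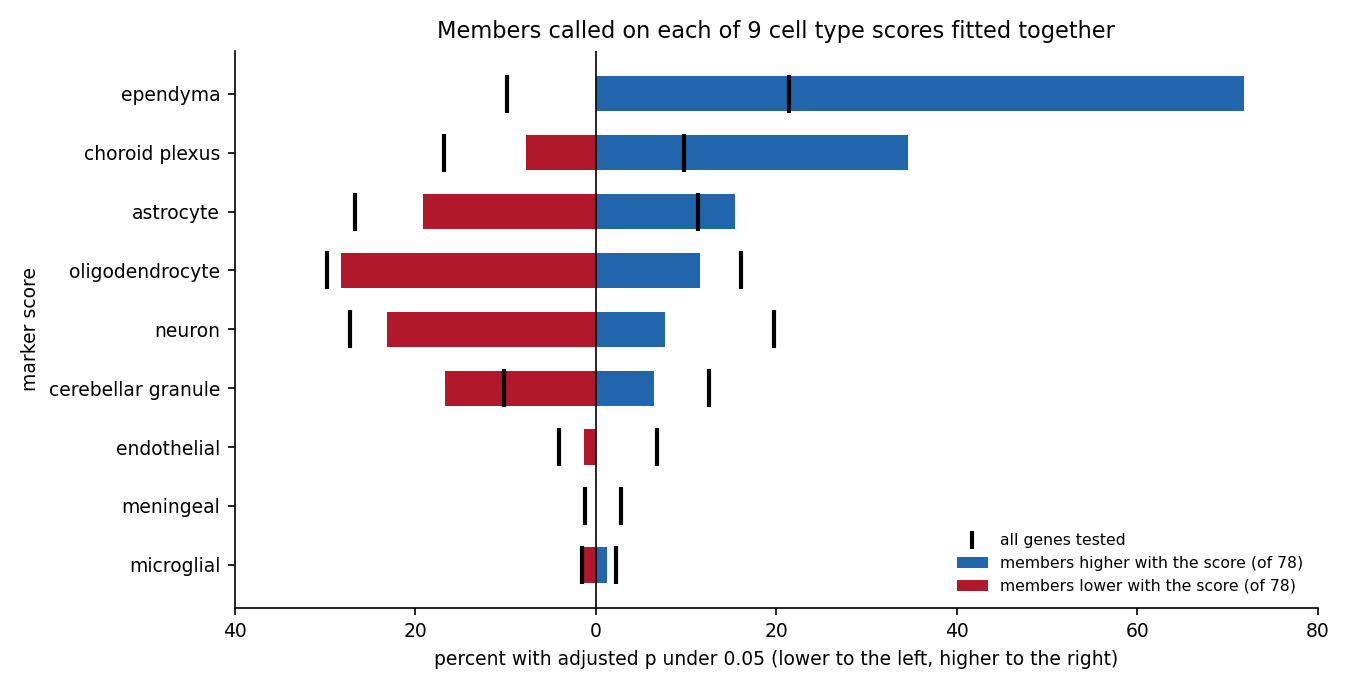
Bars give the percent of the 78 tested members that rose (blue, to the right) or fell (red, to the left) with each of 9 marker scores fitted together, and black ticks the percent of all genes tested. The ependyma bar reaches 71.8% to the right with none to the left, and the choroid plexus bar 34.6%.

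Cilium genes outside the rule also moved in both directions. Of 27 further genes listed as axonemal and present in the table, 23 were tested. With the marker score 14 rose and 4 fell, against 23.6% and 22.8% of all genes. The list also holds Wdr19, a gene of intraflagellar transport, which was among those that fell (r = −0.16, limma adjusted p = 0.00716). The difference between these genes and the members was not tested. Ak7 (r with Foxj1 = 0.69), Dynlrb2 (0.62), Dnali1 (0.60) and Ak9 (0.60) were high, and Gas8, a nexin-dynein regulatory subunit also called Drc4, was at −0.39. Ccdc39 and Ccdc40 act together as the molecular ruler of the axoneme. Ccdc40 rose with Foxj1 (r = 0.65, adjusted p = 9.08e-40) and fell with Meg3 (r = −0.42), while Ccdc39 fell with Foxj1 (r = −0.39, adjusted p = 6.42e-13) and rose with Meg3 (r = 0.68). Of 10 tested assembly factors, 5 rose with the marker score and none fell, and Zmynd10 followed Meg3 (r = 0.77). Among 6 tested transcription regulators of the programme, 4 rose and 2 fell with Foxj1, against 28.2% and 37.8% of all genes. Tp73 (r = 0.54), Myb (r = 0.29), Rfx2 (r = 0.26) and Rfx4 (r = 0.2) rose, and Rfx3 (r = −0.35) and Gmnc (r = −0.13) fell. The 10 genes outside the rule of largest median r with the members were Cdhr4 (0.23), Lrrc74b, Ahi1, Vwa5al1, Aurkb, Crocc2, Sspo, Ccdc162, Adgb and P2rx6 (0.19).

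The spread between rats was near that of other genes. The SD of a member over the SD that a trend gives at the same mean level had a median of 1.04, against 0.99 over all genes, and 1 of 78 members reached 2 times the trend, against 5.23%. That member was Cfap251, at 4.05 ± 0.68 and 5.14 times the trend. Its levels ran from 2.51 to 5.37 (median 4.14), and its 95th percentile was 4.88-fold above its 5th. Between 2.75 and 3.0 there were 34 libraries, between 3.25 and 3.5 there were 5, and between 4.0 and 4.25 there were 60. The histogram thus has a dip, yet no member met the rule for separate levels (0 of 78, against 0.809% of all genes), which asks for means at least 4 SD apart.

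Cfap251 (chr12:38923154-38997881, GRCr8) had its 3 genes of largest r on its own chromosome. They were P2rx4 (r = 0.64, rho = 0.63), whose start lies 525.5 kb away, Orai1 (r = 0.45) and Bcl7a (r = 0.43, rho = 0.42), 93.1 kb away. The r with P2rx4 was 0.55 to 0.74 within blocks. Closer tested genes did not resemble it, with r = 0.15 for Psmd9 at 20.5 kb and r = 0.01 for Hpd at 44.4 kb. Dnah11, at 1.98 times the trend, and Spag6l, at 1.96 times, lay just under the limit. Spag6l (chr11:97677840-97773580), a central apparatus gene named here after its values were seen, had levels from 1.39 to 3.48 (median 2.63). It followed Clxn, the gene of the outer arm protein calaxin, on the same chromosome at 1822.9 kb (r = 0.83, rho = 0.84, and 0.82 to 0.92 within blocks). It moved against Top3b, 48.2 kb away (r = −0.69, rho = −0.7, and −0.83 to −0.61 within blocks). Permutation p was 1e-05 for each of these pairs, which were picked for their size.

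**Figure D5:**
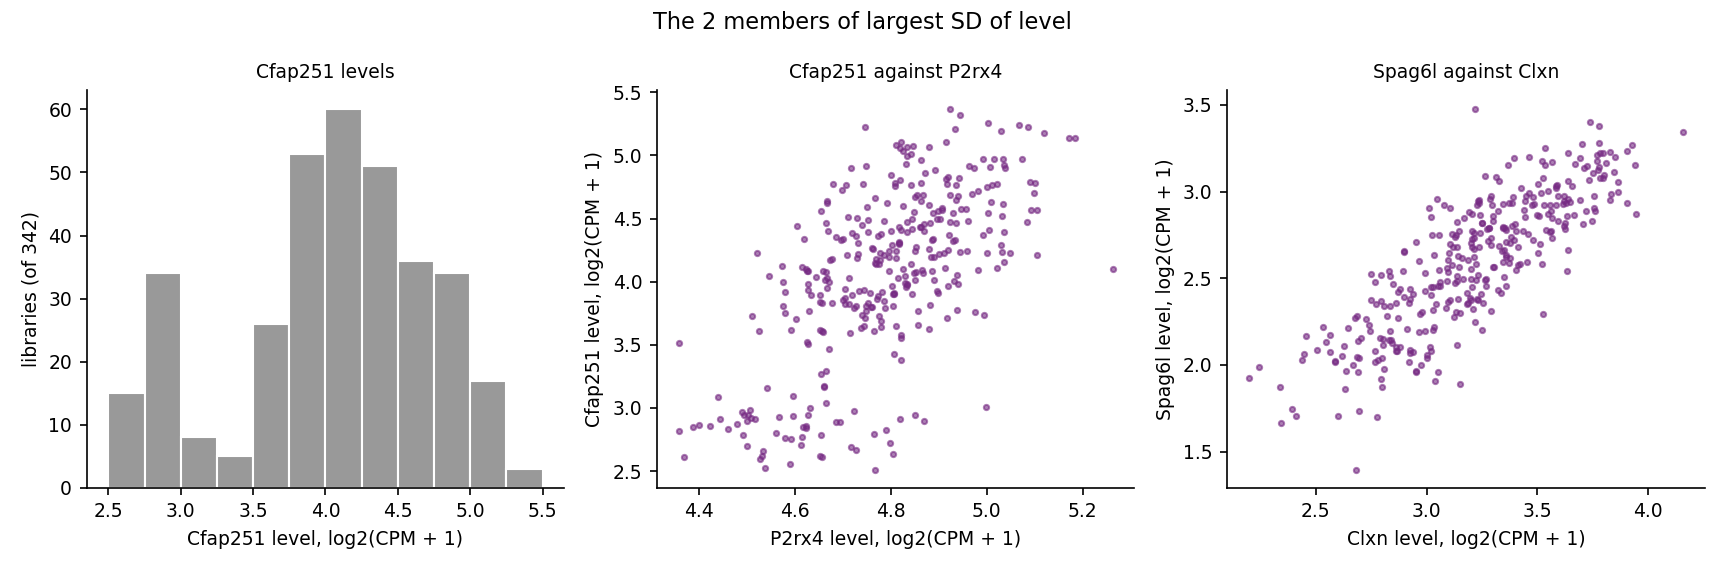
Left, the number of libraries in each 0.25-wide bin of the Cfap251 level, with a dip of 5 libraries between 3.25 and 3.5. Centre and right, Cfap251 against P2rx4 (r = 0.64) and Spag6l against Clxn (r = 0.83), 1 point per library on the log2(CPM + 1) scale.

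After 10 principal components were removed, 10 of the pairs of a member and 1 of the nearest tested genes on either side (3.21%) had an absolute r of at least 0.4, against 2.45% of such pairs over all genes. They were found at 7 members, all but Cfap251 and Cfap69 named after their values were seen. Cfap69 and Cldn12 (−0.68), Cfap410 and Icoslg (0.6), Dnah3 and Lyrm1 (0.56) and Cfap61 and Crnkl1 (−0.53), whose starts are 0.3 kb apart, were the largest beside the pairs of Spag6l. Before that removal the direction was not shared by all blocks for Cfap69 and Cldn12 (r = −0.57, within blocks −0.79 to 0.32) or for Cfap61 and Crnkl1 (r = −0.43, within blocks −0.71 to 0.12). For Dnah3 and Lyrm1 it was shared (r = 0.44), but r was 0.08 in the lowest block and 0.82 in the highest, and for Cfap410 and Icoslg (r = 0.57) it ran from 0.22 to 0.71. The gene of largest r lay within 1000 kb for 6 members, Rsph6a, Cfap61, Cfap251, Cfap97, Rsph1 and Cfap410, against 6.97% of all genes. Whether reads of neighbouring transcripts were shared between such genes was not tested.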

How the data were processed

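Transcripts were counted by kallisto, as the submitters' processing notes list it, with a version not given in the sources used here. Values deposited by the authors are log2 of estimated counts plus 1 with no correction for depth. They were turned back into counts, scaled to a total of 1000000 per library (CPM), and put on a log2 scale again with a pseudocount of 1. Of 352 labelled samples, 342 are in the table and 10 are not analysed here. Every gene with a mean level of at least 1 was fitted with limma 3.58.1 (R 4.3.3; empirical Bayes with trend), with Benjamini-Hochberg adjustment over all genes tested and a threshold of 0.05. The marker genes of a predictor were left out of its test. Slopes are log2 units per SD of the predictor. The fit was tested on simulated data. Permutation tests were two-sided. Spread was set against a lowess trend, and separate levels were sought with Gaussian mixtures. Promoter windows and gene coordinates are from RefSeq on GRCr8.

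The members, the lists of roles, markers and pathway genes and the tests were chosen with earlier results of these data known, and the fits with Meg3 and with Slc6a4 were added after seeing these values. Named members are, in each role class, the 2 of highest mean level and the 2 of largest r with the marker score, the 10 of largest and 5 of smallest r of all, those at 2 times the trend and the 5 of largest F between blocks, 44 in all. Other members named were chosen after their values were seen. Alternatives were the pseudocount, the scaling, the level minimum, covariates, the predictor and the libraries left out. Marker lists of pineal and dividing cells were not used as terms.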

Additional observations from a re-analysis of the deposited data

How the results depend on the processing

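Counts of members that rose changed by less than 1.5 times under every setting run, apart from the level minimum of 3, which left 29 members to test: with it 12 rose with the marker score, 16 with it beside the other cell types, 11 with Foxj1 beside Meg3 and 5 with Foxj1 beside Slc6a4, while 17 rose and 3 fell with Meg3. The count that fell with the marker score was 2, and was less stable: 1 with a pseudocount of 0.1, 4 with TMM scaling, 5 with median ratio scaling, 0 with no level minimum, 0 with the first principal component as a covariate, 12 with Foxj1 alone and 8 with the score without Vwa3a. Beside the other cell types it was 0, and 1 with median ratio scaling or without Vwa3a. The shares of all genes under each of these settings are not given here, and with the level minimum of 3 the genes tested differ as well. With the first principal component the slope turned upward for Cfap74 (0.042), Dnah9 (0.048), Dnai7 (0.019), Drc1 (0.074) and Drc3 (0.018), and with Foxj1 alone it turned downward for Cfap20 (−0.016), Cfap99 (−0.017) and Spag7 (−9.3e-05); the cause was not tested. Members at 2 times the trend numbered 2 with median ratio scaling or without the 5% of libraries with fewest genes. TMM and median ratio scaling were computed from the counts turned back from the deposited values. The score without Vwa3a and the fits without the 3 libraries that stand apart were chosen after seeing the data. Depth limits the low members: in the smallest libraries a member near the level minimum rested on fewer than 10 counts, and r with it is bounded by counting error.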
